A study of Saccharomyces cerevisiae with 4 samples.

Results

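The translocase of the outer membrane (TOM) complex is the gate through which nearly all mitochondrial proteins made in the cytosol enter the organelle. Its 8 genes in budding yeast (Saccharomyces cerevisiae), TOM5, TOM6, TOM7, TOM20, TOM22, TOM40, TOM70 and TOM71, were taken by their common names from a table of 6692 genes, of which 6664 are encoded in the nucleus. The genes were measured by proximity-specific ribosome profiling, in which a biotin ligase placed at one site in the cell marks the ribosomes next to it. Footprints, the stretches of mRNA that ribosomes protect from RNase, are then sequenced from the marked ribosomes (pulldown) and from all ribosomes (input).

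All libraries came from a single strain in the S288C background. At its own locus, marked with HIS5, OM45 encoded Om45, an outer membrane protein, fused to the fluorescent protein mVenus and to the biotin ligase BirA. Both RPL16a and RPL16b, which encode a protein of the large ribosomal subunit, were replaced at their loci by versions with HA, TEV and AVI sequences, of which AVI is the peptide that BirA biotinylates. At leu2 the labels list a further BirA gene behind pPGK1 with the marker LEU2. This ligase would not be tied to Om45, and its part in the values below was not tested. The strain also carried ura3Δ0, met15Δ0 and his3Δ1. The 4 groups were the pulldown and the input with cycloheximide and the pulldown and the input without cycloheximide. The drug, which halts ribosomes as they elongate, was added at 100 µg/ml, 2 min ahead of the biotin. In all groups cells grew in medium with 0.125 ng/ml biotin and received 10 nM biotin for 2 min. Each group held 1 library, so differences below have no replicate check, no test across genes was made, and intervals cover counting error only. Nuclear genes held 15704610 to 37466743 reads a library. URA3 and MET17 (also called MET15) are deleted per the labels, and neither exceeded 4 reads in any library.

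TOM proteins differ in task and in how they sit in the membrane. Tom20 and Tom70 are receptors that stand on the surface, Tom20 for proteins with a cleavable presequence and Tom70 chiefly for proteins with internal signals, such as the carriers, which reach it with cytosolic Hsp70 and Hsp90. Tom71 is a paralog of Tom70. These 3 are signal-anchored: their membrane segment lies at the N terminus and leaves the ribosome early in translation. Tom40 is the channel, a beta-barrel that the sorting and assembly machinery (SAM) puts into the membrane from the inner side. Tom22 joins receptors to the channel and takes over presequences from Tom20, Tom5 passes precursors on towards the channel, and Tom6 and Tom7 act on the assembly and stability of the complex. These 4 are tail-anchored: their membrane segment lies towards the C terminus and leaves the ribosome late or after synthesis has ended, although Tom22 also has a short tail in the intermembrane space.

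In genome build sacCer3 the genes are scattered over 6 chromosomes. TOM20 (YGR082W) lies on chromosome VII from 644044 to 644595, TOM71 (YHR117W) on chromosome VIII from 342349 to 344268, and TOM40 (YMR203W) on chromosome XIII from 668492 to 669655. Chromosome XIV holds TOM22 (YNL131W) from 378767 to 379225, TOM70 (YNL121C) from 398684 to 400537 and TOM7 (YNL070W) from 493366 to 493548. TOM6 (YOR045W) lies on chromosome XV from 413852 to 414037, and TOM5 (YPR133W-A) on chromosome XVI from 797557 to 797709. Each is annotated as a protein-coding gene, its span equals its coding length plus a stop codon, and 0 of the 8 overlap another gene of the reference table. The proteins have 50 (Tom5), 61 (Tom6), 60 (Tom7), 183 (Tom20), 152 (Tom22), 387 (Tom40), 617 (Tom70) and 639 (Tom71) residues.

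With cycloheximide the TOM genes fell into separate sets in the pulldown. The 3 signal-anchored receptors and the channel gene TOM40 lay far above the median gene, whereas all 4 tail-anchored genes stayed within 0.28 log2 units of it. TOM70 held 106176 reads in the pulldown and 8671 in the input, and its paralog TOM71 held 26159 and 2449. TOM20 held 22763 reads in the pulldown against 3303 in the input, and TOM40 79943 against 8809. In these 4 genes the pulldown count was several times the input count, more than its larger total accounts for. TOM22 held 6347 reads in the pulldown and 6227 in the input, TOM5 3746 and 3268, TOM6 3655 and 3091, and TOM7 3059 and 3695. TOM7 alone among the 8 thus had fewer raw reads in the pulldown, the larger library, than in the input. Scaled to library totals, TOM5, TOM6 and TOM22 were lower in the pulldown as well.

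Enrichment is the log2 ratio of pulldown to input, each scaled to its reads in nuclear genes, minus the value of the median gene of that comparison. The median gene stood at -0.73 with cycloheximide on the scale of library totals and at -0.03 without it, so that values with the drug would be lower by that much without centring. TOM70 was the highest of the 8 at 3.61 (95% interval 3.58 to 3.64), a 12.2-fold enrichment that ranked 79 among 5464 genes with at least 100 reads. TOM71 followed at 3.41 (3.35 to 3.47), TOM40 at 3.17 (3.14 to 3.21) and TOM20 at 2.78 (2.72 to 2.83). The tail-anchored genes stood at 0.23 for TOM6 (0.17 to 0.30), 0.19 for TOM5 (0.12 to 0.26), 0.02 for TOM22 (-0.03 to 0.07) and -0.28 for TOM7 (-0.35 to -0.21). On library totals TOM7 passed the 2-fold mark downwards, at -1.01, and TOM5, TOM6 and TOM22 also took negative values, from -0.71 to -0.49.

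With cycloheximide 4 of 8 TOM genes passed a mark of 2-fold above the median gene, beside 12.5% of all genes tested. Of the 26 genes that the authors place in the outer membrane, these 8 among them, 12 passed it. The mark of 2-fold below the median gene was passed by 0 of 8, beside 0.201% of all genes tested. The median over the 8 was 1.51, between the low and the high set. The medians of the classes were 3.41 for the signal-anchored genes and 0.10 for the tail-anchored ones, a difference of 3.30 or 9.88-fold. The lowest signal-anchored gene, TOM20, and the highest tail-anchored gene, TOM6, did not overlap in their intervals. The authors' deposited table called the same 4 genes enriched, as it did 7.58% of the genes it classed. It gave TOM7 the lowest log2 enrichment of the 8, at -0.89, a value not centred on the median gene. Centred, that value was -0.28.

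**Figure D1:**
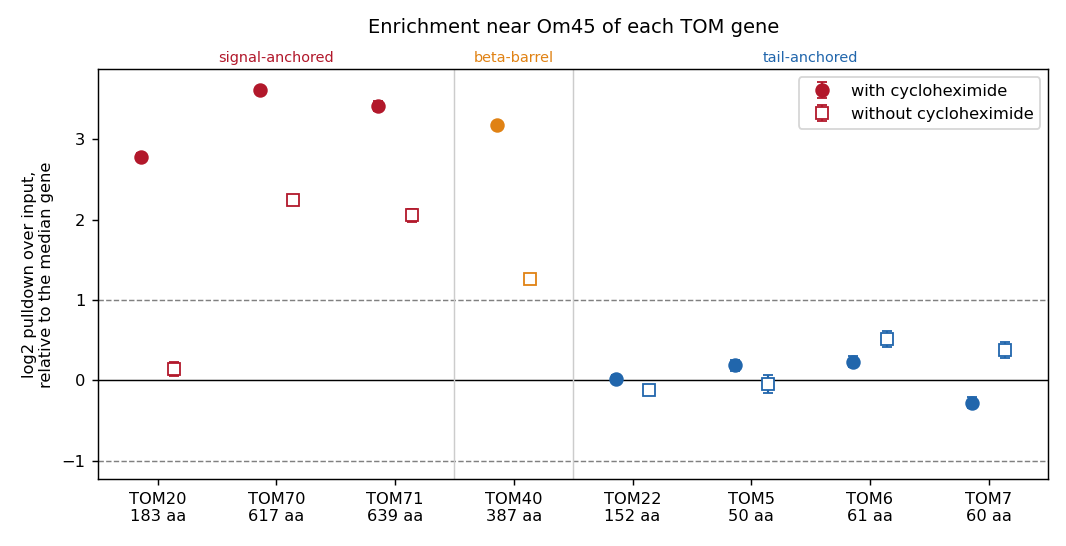
Log2 ratio of pulldown to input relative to the median gene (vertical axis) for each TOM gene (horizontal axis, with protein length in amino acids), with cycloheximide (filled circles) and without it (open squares), 1 library per group, bars giving 95% counting intervals and dashed lines the 2-fold marks. The receptors TOM70, TOM71 and TOM20 and the channel TOM40 stood between 2.78 and 3.61 with cycloheximide, TOM20 stood at 0.15 without it, and the 4 tail-anchored genes stayed between -0.28 and 0.51.

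Without cycloheximide TOM70, TOM71 and TOM40 still passed the mark, and TOM20 did not. TOM70 held 25327 reads in the pulldown and 6351 in the input, TOM71 5409 and 1542, and TOM40 16174 and 7950. TOM20 held 1978 reads in the pulldown against 2116 in the input. The pulldown count was thus above the input count in the first 3 of these genes and slightly below it in TOM20, in a pulldown that was the smaller library. TOM22 held 3558 reads in the pulldown and 4589 in the input, TOM5 1202 and 1472, TOM6 1742 and 1445, and TOM7 1709 and 1562.

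TOM70 stood at 2.24 without cycloheximide (2.20 to 2.28), 4.72-fold above the median gene and rank 38 among 5148 genes. TOM71 stood at 2.05 (1.97 to 2.14), TOM40 at 1.27 (1.23 to 1.31) and TOM20 at 0.15 (0.06 to 0.23). TOM20 was therefore far closer to the tail-anchored genes than to the other receptors in this condition. TOM6 stood at 0.51 (0.41 to 0.61) and TOM7 at 0.37 (0.27 to 0.47), both above TOM20, while TOM5 stood at -0.05 (-0.16 to 0.06) and TOM22 at -0.12 (-0.19 to -0.06). Of the 8 genes 3 passed the upper mark, beside 6.39% of all genes tested, and 0 passed the lower one, beside 0.0777%. Of the 26 outer membrane genes, with the TOM genes among them, 6 passed the upper mark. The class medians were 2.05 for the signal-anchored genes and 0.16 for the tail-anchored ones, a difference of 1.89 (3.71-fold), but the signal-anchored class itself ran from 0.15 to 2.24. In the authors' deposited table the same 3 genes were called enriched, beside 4.52% of the genes classed. On its uncentred values TOM40, at 1.24301, was the lowest of all called genes, with DAN1 just under it at 1.24266.

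**Figure D2:**
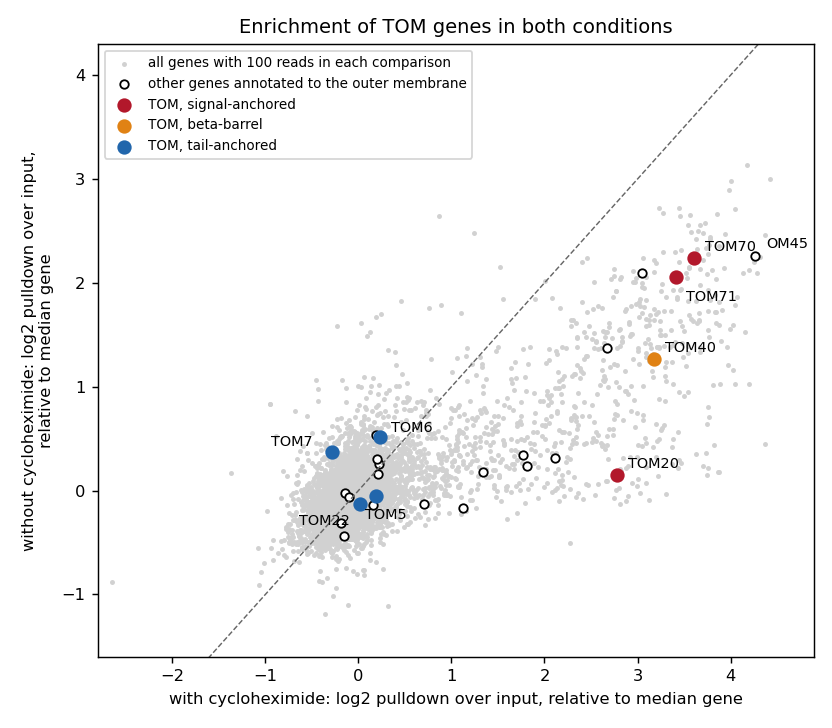
Log2 ratio of pulldown to input relative to the median gene with cycloheximide (horizontal axis) and without it (vertical axis) for all genes with at least 100 reads in each comparison (grey), other genes annotated to the outer membrane (open circles) and the TOM genes by class (coloured), with a dashed line of equal values. TOM70 and TOM71 lie at the upper right, with the bait gene OM45 further right at 4.27 and 2.26, and TOM40 lies below them. TOM20 lies at the lower right with 2.78 and 0.15, and the 4 tail-anchored genes in the cloud around 0.

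The conditions were then set against each other, gene by gene, as the enrichment with minus that without cycloheximide, relative to the median difference of -0.65. TOM20 had the largest difference of the 8, 2.59 (2.49 to 2.69), which ranked 54 among 5141 genes measured. It was the largest among the 26 genes that the authors place in the outer membrane, a set without MCR1, a gene for a protein found partly in that membrane, which had 2.62 (2.54 to 2.70). TOM40 had 1.86 (1.81 to 1.91), TOM70 1.33 (1.28 to 1.38) and TOM71 1.31 (1.21 to 1.41). The difference of TOM20 exceeded that of TOM70 by 1.26 (1.15 to 1.38). TOM20 ranked 1 in this difference among 171 annotated mitochondrial genes with at least 100 and fewer than 200 residues. Of the 26 outer membrane genes 11 lay 2-fold or more above the median difference. Of the 8 TOM genes 4 did, beside 9.57% of all genes tested, and 0 lay as far below it, beside 0.622%. On library totals 2 lay that far above it, TOM20 at 1.94 and TOM40 at 1.21, while TOM70 stood at 0.67 and TOM71 at 0.66.

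The tail-anchored genes differed among themselves in the same comparison. TOM5 had a difference of 0.20 (0.07 to 0.33) and TOM22 of 0.10 (0.02 to 0.18), whereas TOM6 had -0.32 (-0.44 to -0.20) and TOM7 -0.69 (-0.82 to -0.57). TOM7 was the lowest of the 26 outer membrane genes in this difference, and 2.31% of all genes lay below it. On library totals its difference was -1.35, past the 2-fold mark. Relative to the median gene TOM6 and TOM7 thus had higher values without the drug, and TOM5 and TOM22 did not. On library totals all 4 had negative differences, with TOM5 at -0.46 and TOM22 at -0.55. With 1 library per condition, the drug and the state of each culture cannot be told apart.

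The paralogs TOM70 and TOM71 stood close together. TOM70 was above TOM71 by 0.20 with cycloheximide (0.13 to 0.26) and by 0.19 without it (0.09 to 0.28), and their change between conditions differed by 0.01 (-0.10 to 0.13). Over all pairs of paralogs from the whole-genome duplication in the authors' table, the median absolute difference of that change was 0.22, and 18 of 468 pairs differed by less than this pair. The interval of -0.10 to 0.13 is wide beside that median, so the counts do not resolve this rank. With cycloheximide the median absolute difference of enrichment was 0.21 over 520 pairs, and 242 of them differed by less than TOM70 and TOM71. Over the 45 pairs with both genes annotated as mitochondrial it was 0.37, and 9 differed by less. Without cycloheximide 21 of 41 such pairs did, and 1 of 41 did in the change between conditions, a rank with the same limit. The sources used here do not state how the authors assigned reads that match both genes. Their levels differed more: in the input with cycloheximide TOM70 had 208 reads per kilobase of coding length per 1000000 nuclear-gene reads (interval 204 to 212) and TOM71 56.7 (54.5 to 59.0).

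The density of footprints, in the same unit, was compared between genes in the input libraries. The tail-anchored subunits were at the top of the order and TOM71 at the bottom in both. With cycloheximide TOM5 had 967 (934 to 1001) and TOM7 911 (882 to 941), neighbours whose intervals overlap, followed by TOM6 at 750 (724 to 777) and TOM22 at 606 (591 to 621). TOM40 had 337 (330 to 344), TOM20 267 (258 to 276) and TOM70 208. The small subunits were thus read at 2.87 (TOM5), 2.71 (TOM7) and 2.23 (TOM6) times the density of the channel gene, and TOM22 at 1.80 times.

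Without cycloheximide the spread of the input densities was narrower. TOM22 had 554 (538 to 570) and TOM5 540 (513 to 568), which do not differ beyond counting error, and TOM7 had 478 (454 to 502) and TOM6 435 (412 to 458), which overlap at their edges. TOM40 followed at 377 (369 to 385), TOM20 at 212 (203 to 221), TOM70 at 189 (184 to 194) and TOM71 at 44.3 (42.1 to 46.5). The ratio to TOM40 was then 1.43 for TOM5, 1.27 for TOM7, 1.15 for TOM6 and 1.47 for TOM22. The highest density was 17.1 times the lowest with the drug and 12.5 times without it. The table gives 1 count per gene, so reads near the start or stop codon, which weigh more in short frames, cannot be set apart.

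In both pulldowns TOM40 and TOM70 headed the order of densities and TOM71 was last. With cycloheximide TOM40 had the highest density, 1838, before TOM70 at 1531 and TOM20 at 1107, and TOM22 had 371, just above TOM71 at 364. Without the drug TOM40 had 887 and TOM70 871, whose intervals overlap, and TOM20 had 229. As a whole the 8 genes took 6722 reads of every 1000000 nuclear-gene reads in the pulldown with cycloheximide against 1754 in its input, and 3636 in the pulldown without it against 1487 in its input.

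**Figure D3:**
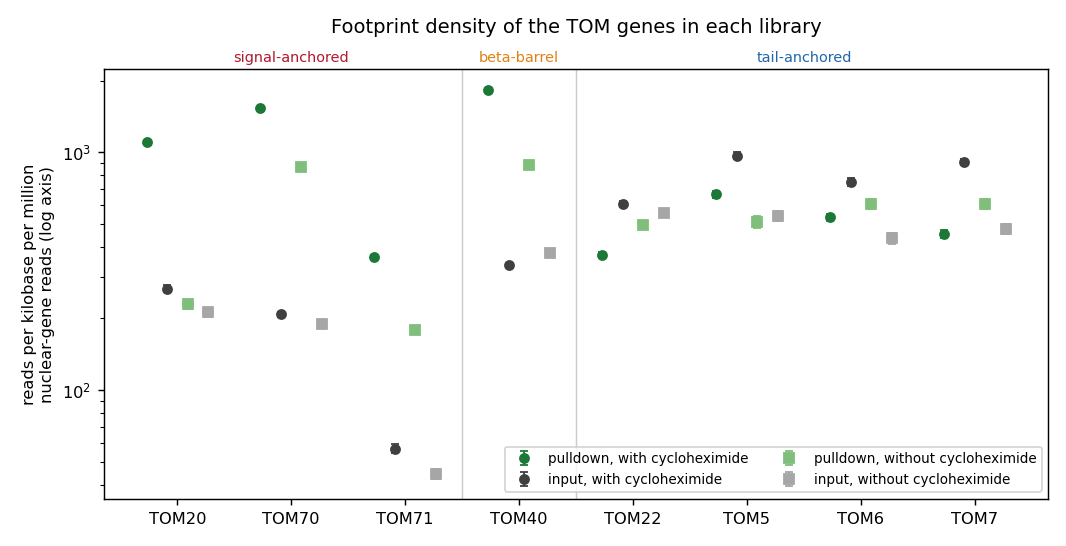
Reads per kilobase of coding length per 1000000 nuclear-gene reads (log axis) of each TOM gene in the 4 libraries, with circles for libraries with cycloheximide, squares for those without it, green for pulldowns and grey for inputs, and bars for 95% Poisson intervals. In TOM70, TOM71 and TOM40 both pulldowns lie above both inputs, in TOM20 only the pulldown with cycloheximide stands apart at 1107, and in the tail-anchored genes the 4 libraries lie between 371 and 967.

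The input with cycloheximide was also compared directly with the input without it. Of the 8 TOM genes 0 lay 2-fold or more from the median gene in either direction, while 10.6% of all genes tested were that far above it and 10.4% below it. TOM40 had the lowest value at -0.90 (-0.94 to -0.85), TOM22 stood at -0.61, TOM70 at -0.60, TOM20 at -0.40 and TOM71 at -0.38. TOM7 stood at 0.20 (0.11 to 0.28), TOM5 at 0.10 (0.02 to 0.19) and TOM6 at 0.05 (-0.04 to 0.14). TOM5 and TOM7 therefore lay above zero, the interval of TOM6 included zero, and the other 5 genes lay below it. These signs depend on the scaling, since the median gene stood at 0.74 on library totals, where TOM40 alone of the 8 was negative, at -0.16, and TOM7 stood at 0.93.

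Coding length and membrane class run together among the TOM genes, because Tom5, Tom6 and Tom7 are the shortest of the 8. Among genes that the authors annotate as mitochondrial, 0 of 45 with fewer than 100 residues passed the 2-fold mark with cycloheximide, and their median was 0.09. In that set TOM6 ranked 13, TOM5 ranked 16 and TOM7 ranked 44. Of 176 such genes with at least 100 and fewer than 200 residues 30 passed it, with a median of 0.25. Both TOM20 and TOM22 fall in this class, and TOM20 ranked 7 while TOM22 ranked 144. The difference between these genes, of 183 and 152 residues, was 2.76 (2.68 to 2.83) with cycloheximide and 0.27 (0.16 to 0.38) without it.

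Larger shares of the longer annotated mitochondrial genes passed, which were 59.4% in the next length class and 47.6% in the longest, against 17.0% in that of TOM20. Of 352 with at least 200 and fewer than 400 residues 209 passed the 2-fold mark with cycloheximide, and TOM40 ranked 55 among them. Of 525 with at least 400 residues 250 did, and TOM70 ranked 57 and TOM71 ranked 78. Without cycloheximide TOM20 ranked 73 of 171 annotated mitochondrial genes of its length class, whose median was 0.11, so its value of 0.15 was near the middle for its length. TOM40 ranked 63 of 346 in its class, with a median of 0.35, and TOM70 ranked 32 and TOM71 ranked 54 of 512 in theirs, with a median of 0.14.

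**Figure D4:**
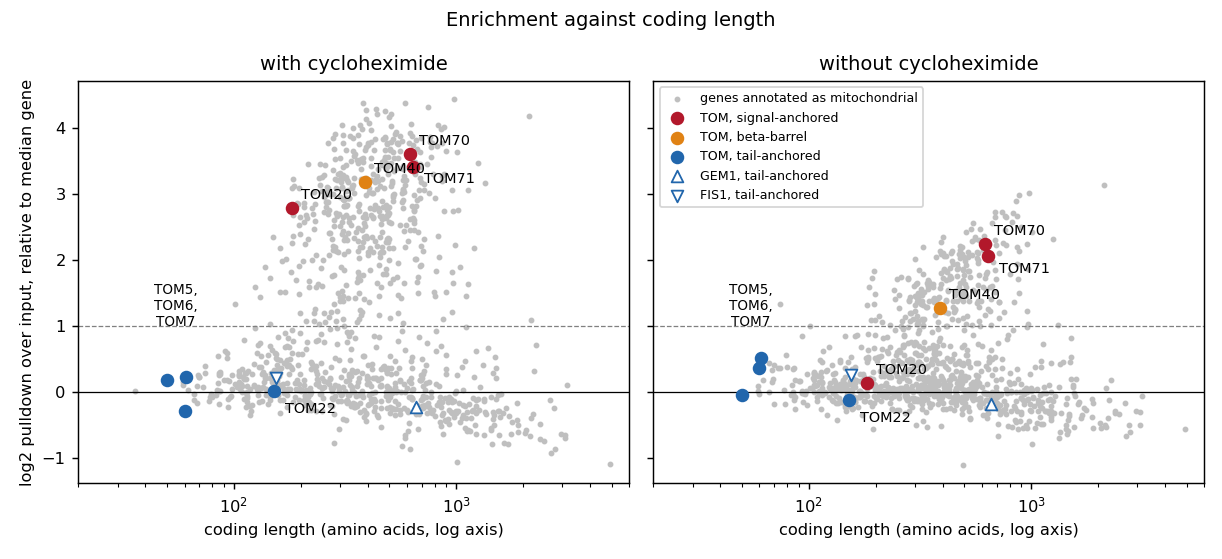
Log2 ratio of pulldown to input relative to the median gene (vertical axis) against coding length in amino acids (log axis) for genes annotated as mitochondrial (grey), the TOM genes by class (filled circles) and the tail-anchored genes GEM1 and FIS1 (open triangles), with cycloheximide (left) and without it (right). TOM20 at 183 amino acids stands at 2.78 and TOM22 at 152 at 0.02 in the left panel, and GEM1 at 662 amino acids stands at -0.22 among the long genes.

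The classes were set beside other outer membrane genes, grouped by the type of their membrane segment. The deposited data do not give their insertion routes, which may differ within a group. Fis1, the adaptor of mitochondrial fission, and Gem1, a GTPase linked to the ER-mitochondria tether, are tail-anchored, and neither gene passed the mark: FIS1 stood at 0.22 with and 0.26 without cycloheximide, and GEM1 at -0.22 and -0.18. GEM1, with 662 residues, is longer than TOM70. Of annotated mitochondrial genes with at least 400 residues, 47.6% passed the mark with cycloheximide. The parts of length and class in the value of this single gene were not tested. The other signal-anchored genes were OM45, which encodes the bait, at 4.27 and 2.26, MCR1, a cytochrome b5 reductase found partly in the outer membrane, at 3.25 and 0.59, and MSP1, the ATPase that extracts mistargeted tail-anchored proteins, at 1.82 and 0.24. All 3 passed the 2-fold mark with cycloheximide and OM45 alone did without it. In these calls MCR1 and MSP1 went with TOM20, and OM45 with TOM70 and TOM71. The porin genes POR1 and POR2, beta-barrels like TOM40, stood at 1.33 and 1.77 with cycloheximide and at 0.17 and 0.35 without it, both below TOM40. The barrel genes SAM50 and MDM10 were closer to it, at 2.64 and 2.67 with the drug and 1.42 and 1.38 without it. Some genes that the authors place in the outer membrane were in none of these groups. Of those, MDV1 passed the mark in both conditions, at 3.05 with and 2.10 without cycloheximide. MDM34, at 2.11 and 0.32, and UGO1, at 1.13 and -0.17, passed it with the drug only. The rest, such as MDM12 at -0.19 and -0.31 and MMM1 at -0.10 and -0.06, passed it in neither.

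Other genes of protein import covered the same span. Of all genes tested 12.5% passed the mark with cycloheximide and 6.39% without it, so low counts in the short lists below are near those shares. In the list for SAM and barrel insertion 2 of 4 genes passed the mark in each condition, SAM50 and MDM10, while SAM37 was lowest at -0.16 with cycloheximide and -0.44 without it. MIM1 and MIM2, which insert signal-anchored and multispanning outer membrane proteins, stood at 0.20 and 0.30 with cycloheximide and at 0.31 and 0.19 without it. Of 11 genes of the TIM23 presequence translocase and its motor 6 passed with cycloheximide and 2 without it, led by the receptor TIM50 at 3.85 and 2.04. The lowest were PAM18, a J-protein of the motor, at -0.01 with the drug and the motor Hsp70 SSC1 at -0.03 without it. Of 3 genes of the TIM22 carrier translocase 2 passed in both conditions, with TIM54 highest at 3.56 and 2.15 and TIM22, the channel gene, lowest at 0.19 and 0.09. All 5 small TIM genes, chaperones of the intermembrane space with fewer than 110 residues, stayed below the mark, from 0.02 (TIM8) to 0.36 (TIM12) with and from -0.26 (TIM9) to 0.28 (TIM13) without cycloheximide. Of the disulfide relay MIA40, the membrane-bound receptor, stood at 4.06 and 1.86 and ERV1, the sulfhydryl oxidase, at -0.08 and 0.22.

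Cytosolic chaperones and nascent-chain factors, which bring precursors to the TOM receptors, had values close to that of the median gene in the set with the drug. Of 12 genes 0 passed the mark, beside 12.5% of all genes tested, which is not far apart for 12 genes. SSA3, an Hsp70, was highest at 0.46 and the J-protein DJP1 lowest at -0.24. Without the drug 1 passed, SSA3 at 1.83, beside 6.39% of all genes tested, and HSC82, an Hsp90, was lowest at -0.48. SSA3 held 144 reads in the pulldown and 104 in the input with cycloheximide and 172 and 57 without it, and the SSA genes are close relatives whose shared reads may be split between them. The messages of the tagged ribosomal protein, RPL16A and RPL16B, stood at 0.12 and 0.22 with and at -0.10 and -0.19 without cycloheximide.

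**Figure D5:**
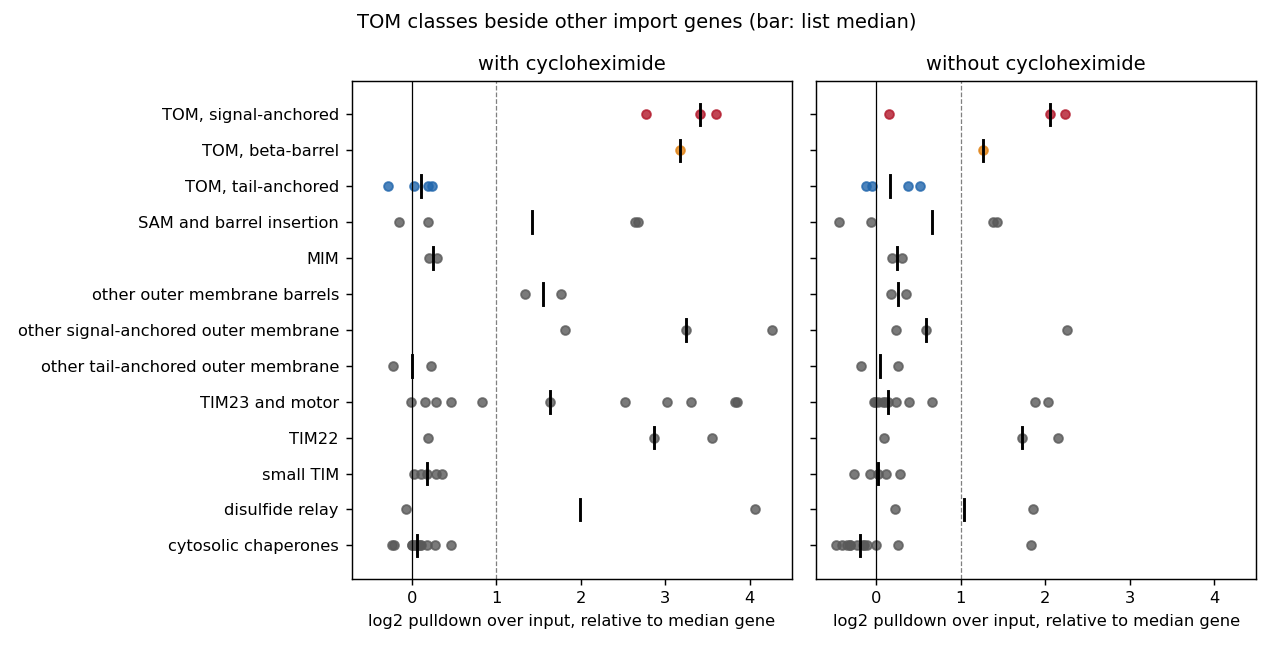
Log2 ratio of pulldown to input relative to the median gene (horizontal axis) with cycloheximide (left) and without it (right) for the TOM genes by class and for 10 lists of other import genes, with 1 point per gene, a black bar at each list's median and a dashed line at 2-fold. With cycloheximide the tail-anchored TOM genes, the other tail-anchored genes, MIM, the small TIMs and the cytosolic chaperones all lie below the 2-fold line, while the signal-anchored TOM genes have a median of 3.41.

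Genes with the most similar pair of enrichments were found for each TOM gene by the distance in the plane of both values, over 3021 genes with at least 500 reads in every library. For TOM20 these were COQ3 of coenzyme Q synthesis, ATP5, a stalk subunit of the ATP synthase, and MRP20 of the mitochondrial ribosome, at distances of 0.07 to 0.12. For TOM70 they were TIM54, the intermediate peptidase OCT1 and LEU9, an isopropylmalate synthase, and for TOM71 YDR061W, the threonine deaminase gene ILV1 and COQ1. TOM40 was nearest to BNA3, MCY1 and YLH47, at distances up to 0.06. All 12 of these neighbours are annotated as mitochondrial by the authors. Of the 12 neighbours of the tail-anchored genes, RPL40B beside TOM22 and CCW14 beside TOM6 carried that annotation. RME1, EGH1, TMA10 and AGA1 were among the others. Of nuclear genes scored for a mitochondrial presequence, 1116 carry the annotation and 5547 do not. The neighbours of the tail-anchored genes thus carried it at about the share of all genes.

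The MitoProt score in the authors' deposited table, which predicts a mitochondrial presequence, did not order the 8 genes as their enrichment did. It was 0.78 for TOM70, 0.74 for TOM7 and 0.69 for TOM20, followed by 0.32 for TOM71, 0.08 for TOM40, 0.02 for TOM6, 0.0099 for TOM22 and 0.0014 for TOM5. TOM7 thus had a high score without enrichment and TOM40 a low one with it. A score of at least 0.5 was held by 48.5% of the annotated mitochondrial genes and 16.2% of the other nuclear genes.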

How the data were processed

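Ribosome footprints of budding yeast were measured in 4 libraries, grouped by sample title, with 1 library per group. The deposited values are, per the file headers, raw counts of mapped reads per gene, RPKM, which the authors scaled to gene length and library size, the authors' log2 enrichment (pulldown RPKM over input RPKM), and a MitoProt score per gene. Calls of enrichment were made by the authors from a ROC cutoff, per the file headers. Reads were processed with CASAVA on genome build sacCer3, per the submitters' processing notes. The sources used here name no aligner, length filter or rule for multiply mapped reads. A further 5 columns belong to another fusion and were not used.

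Each library was scaled to its counts over nuclear genes with a pseudocount of 0.5 reads. Genes entered a comparison with 100 reads or more summed over its libraries, which left 5464 with and 5148 without cycloheximide. Values were centred on the median gene and counted at 2-fold. Ratios have exact Clopper-Pearson and densities exact Poisson 95% intervals. Intervals of differences use the normal approximation. No molecular identifiers are recorded, so reads are not independent molecules and intervals cover counting error only. Genes called mitochondrial are those that the authors' table marks by mitop2 or by GO. The reference gene table (R64, the assembly also named sacCer3) gave coordinates and the symbol of MIM2 and other genes listed by systematic name.

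The members, the 10 lists of other import genes and the membrane classes were chosen with earlier results of these data known, so they support nothing independently. Genes named are the 8 members, the extremes of each list, OM45, RPL16A, RPL16B, URA3, MET17 and, for each member, 3 nearest genes, of which some are printed. Other list members, the outer membrane genes outside the groups, and the genes at the limit of the authors' calls were named after their values were seen. Alternatives were library totals, TMM scaling, another centring, a pseudocount of 1, minimums of 20 and 500 reads, folds of 1.5 and 4, the authors' values, and TOM22 left out of its class. Sequences were not used here, so the search for a motif after the stop codon and for the most hydrophobic segment, which were planned, was not made. The procedure was tested on simulated counts that held counting error only, so that test does not cover the spread between cultures. Python 3.11.15, numpy 2.4.6, pandas 2.3.3, scipy 1.17.1, matplotlib 3.10.9 and edgeR 4.0.16 in R 4.3.3 (TMM) were used.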

Additional observations from a re-analysis of the deposited data

Results flagged for a closer look

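TOM7 took opposite signs in the conditions. It stood at -0.28 relative to the median gene with cycloheximide and at 0.37 without it, with neither interval reaching 0, and the signs were the same under each scaling tried, between -1.01 and -0.24 with the drug and between 0.33 and 0.40 without it. The difference between conditions was not tested, since each group held 1 library.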

How the results depend on the processing

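The number of TOM genes past the upper mark was 4 with cycloheximide under all 10 alternatives tried, and 3 without it under 9 of them, the exception being 2 at 4-fold. For the enrichment with minus without cycloheximide, the number was 2 on library totals and 2 with the authors' uncentred values, and 1 at 4-fold, against 4. Between the inputs 3 genes passed at 1.5-fold, against 0 at 2-fold. Without TOM22 the signal-anchored minus tail-anchored difference was 3.22 with cycloheximide and 1.68 without it, against 3.30 and 1.89. Of the values of single TOM genes under other settings, 196 stayed within their counting interval and 60 moved beyond it, of which 24 on library totals, 24 with the authors' uncentred values and 8 under TMM. No value at or past 2-fold changed sign. No paired analysis was possible because each group held 1 library, and for the same reason no library could be left out. Counting error was small beside the differences between class medians, and the spread between cultures was not measured. The classes overlapped without cycloheximide, where signal-anchored TOM20 (0.15) lay below tail-anchored TOM6 (0.51) and TOM7 (0.37).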
